A study of Mus musculus with 36 samples.

Results

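The genes described here are 10 hepatocyte genes, *Glul*, *Oat*, *Cyp2e1*, *Cyp1a2*, *Axin2*, *Lgr5*, *Tbx3*, *Rgn*, *Slc1a2* and *Lhpp*, which are known for expression around the central vein of the liver lobule or for dependence on Wnt signaling. They were chosen by gene name from the 54532 genes of the count table. All 10 were counted in all 36 libraries and all 10 passed the filter of at least 100 counts summed over the libraries, as did 17994 genes in all. In the liver lobule, endothelial cells of the central vein release Wnt ligands and R-spondins, which stabilize beta-catenin in the hepatocytes next to them. Beta-catenin and its TCF partners then activate genes of glutamine synthesis and drug metabolism in these pericentral hepatocytes, as well as feedback genes of the pathway itself, whereas urea synthesis and gluconeogenesis are strongest in periportal hepatocytes.

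Livers were taken from male mice aged 2 to 3 months of the strain B6.129S1-Thrbtm1Df/J bred on C57Bl/6NCrl, a systemic knockout in which *Thrb*, the gene of the main thyroid hormone receptor of liver, is altered in every tissue. The controls (THRB WT) carry 1 altered allele (THRB+/-) and the knockouts (THRB KO) carry only altered alleles (THRB-/-), so no mouse had a fully intact gene. All mice received normal chow ad libitum under a 12 h light and 12 h dark cycle, and 3 mice per genotype were sampled every 4 h from ZT2 to ZT22 (ZT, zeitgeber time, counts the hours since the lights went on), so that ZT14 to ZT22 fell in the dark phase. Levels are given as CPM, counts relative to library size after TMM scaling, and n is 3 mice at each genotype and time unless stated. Total counts ranged from 29063273 to 39913574 in THRB WT and from 31008555 to 42530551 in THRB KO libraries. *Thrb* itself was counted at 24.3 to 38.5 CPM in THRB WT (median 27.9) and at 26.2 to 37.7 CPM in THRB KO (median 31.9), ranges that overlapped, and counts per gene did not check the genotype labels because they do not separate altered from intact transcripts. In bulk liver, fewer cells of a type and less RNA per cell cannot be told apart, and pericentral and periportal hepatocytes were sequenced together.

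None of the 10 genes passed the test of THRB genotype, which 0.950% of all tested genes passed, and 6 of the 10 changed over the day, beside 45% of all tested genes. Over both genotypes, *Axin2* and *Lgr5*, which report Wnt signaling, were highest in the early light phase (ZT2 to ZT6) and lowest at ZT18. The ratio of their highest to their lowest mean was about 2. In means over both genotypes, *Cyp2e1*, *Slc1a2*, *Cyp1a2* and *Lhpp* were highest at ZT10 to ZT14, around lights off, and lowest between ZT18 and ZT2. In THRB KO alone, *Cyp2e1* had its highest mean at ZT6 and *Cyp1a2* at ZT18. *Glul*, the classical marker of the innermost pericentral hepatocytes, *Oat*, *Rgn* and *Tbx3* did not pass the test of sampling time.

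**Figure D1:**
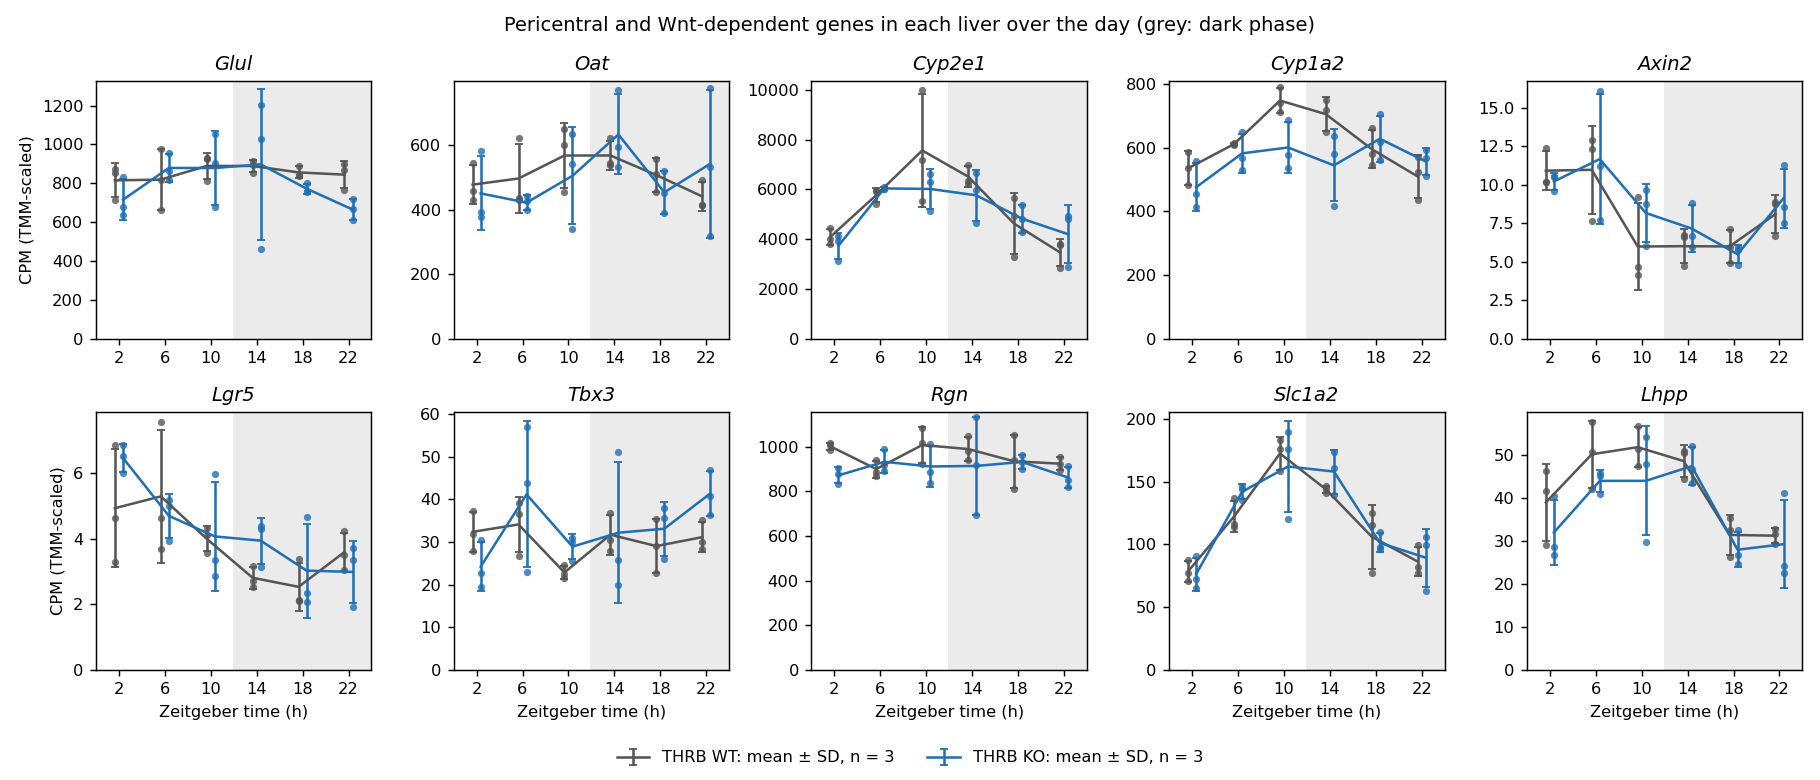
Level of each gene in CPM (vertical axis, from 0) against zeitgeber time in hours (horizontal axis, dark phase in grey). Points are single livers, and lines with bars are the mean ± SD of 3 THRB WT (grey) or 3 THRB KO (blue) mice. *Axin2* and *Lgr5* are high on the left, *Cyp2e1*, *Slc1a2* and *Lhpp* in the middle, and the genotypes overlap at most times.

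The 10 genes covered a wide range of levels. Per kilobase of annotated exons, *Cyp2e1* led in THRB WT livers at 2474 ± 802 CPM per kb (SD, n = 18), followed by *Rgn* at 597 ± 43.7, *Cyp1a2* at 307 ± 48.4, *Glul* at 256 ± 23.3 and *Oat* at 216 ± 32.9 CPM per kb. The lower group comprised *Lhpp* at 17.4 ± 4.17, *Slc1a2* at 9.01 ± 2.71, *Tbx3* at 4.56 ± 0.835, *Axin2* at 1.45 ± 0.505 and *Lgr5* at 0.376 ± 0.141 CPM per kb (SD, n = 18). In this order the intervals of mean ± SD of neighbours overlapped for *Cyp1a2* with *Glul* and for *Glul* with *Oat*, and were apart for the other 7 neighbouring pairs. *Lgr5* ranked at percentile 28.6 and *Cyp2e1* at percentile 99.9 of all tested genes, with 63 to 287 reads per library behind the values of *Lgr5*, so the feedback genes were measured with less precision than the enzymes.

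Promoter windows of RefSeq (GRCm38.p6, 250 bases before to 50 bases after the start) were matched for 6 of the 10 genes, *Glul*, *Slc1a2*, *Oat*, *Cyp2e1*, *Cyp1a2* and *Axin2*. They were searched on both strands for the core of the TCF/LEF motif, CTTTGA. The core was found in the windows of *Slc1a2*, *Cyp2e1* and *Cyp1a2*, and not in those of *Glul*, *Oat* and *Axin2*. Of all 32851 RefSeq promoter windows, 16.0% hold this core. The windows of these 3 genes are given here with that of *Axin2*, a Wnt feedback gene without the core in its window. Capitals mark the core, written TCAAAG where it lies on the other strand, and each sequence reads 5′ to 3′ on the strand of the gene.
Slc1a2 (chr2:102706188-102706487, + strand): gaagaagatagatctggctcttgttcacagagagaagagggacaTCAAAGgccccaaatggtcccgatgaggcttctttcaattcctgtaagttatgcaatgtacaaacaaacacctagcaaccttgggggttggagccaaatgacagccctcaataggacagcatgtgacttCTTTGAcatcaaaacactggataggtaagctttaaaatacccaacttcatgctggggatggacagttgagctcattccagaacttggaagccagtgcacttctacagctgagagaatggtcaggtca
Cyp2e1 (chr7:140763569-140763868, + strand): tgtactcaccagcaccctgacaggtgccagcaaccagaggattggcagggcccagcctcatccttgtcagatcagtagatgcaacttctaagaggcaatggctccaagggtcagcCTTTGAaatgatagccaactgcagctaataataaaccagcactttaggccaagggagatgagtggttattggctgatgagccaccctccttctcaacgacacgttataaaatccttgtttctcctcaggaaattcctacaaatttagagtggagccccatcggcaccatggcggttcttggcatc
Cyp1a2 (chr9:57683606-57683905, - strand): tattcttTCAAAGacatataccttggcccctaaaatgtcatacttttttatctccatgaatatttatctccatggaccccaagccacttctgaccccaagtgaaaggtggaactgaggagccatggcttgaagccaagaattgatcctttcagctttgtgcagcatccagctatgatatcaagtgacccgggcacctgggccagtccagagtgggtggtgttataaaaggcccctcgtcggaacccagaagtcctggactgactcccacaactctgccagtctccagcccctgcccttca
Axin2 (chr11:108920099-108920398, + strand): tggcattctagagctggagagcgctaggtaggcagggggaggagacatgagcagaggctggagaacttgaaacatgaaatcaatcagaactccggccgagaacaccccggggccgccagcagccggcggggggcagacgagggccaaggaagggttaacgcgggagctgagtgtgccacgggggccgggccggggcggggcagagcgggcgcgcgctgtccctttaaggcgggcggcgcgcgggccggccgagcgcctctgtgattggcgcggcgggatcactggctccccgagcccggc
In *Slc1a2* the core began 206 bases (other strand) and 77 bases before the start, in *Cyp2e1* 135 bases and in *Cyp1a2* 243 bases (other strand) before it, and the *Slc1a2* window lies at a start inside the span of the gene in the count table. The longer form CTTTGAT was found in 1 of the 6 windows, that of *Slc1a2*, and in 3.73% of all windows. The E-box CACGTG (7.15% of all windows), the D-box TTATGTAA (0.938%), the core GCGTG of the xenobiotic response element (32.4%) and the thyroid hormone response element DR4, a direct repeat of AGGTCA with 4 bases between (0.0152%), were found in 0 of the 6 windows. The AGGTCA element of ROR factors, which is also the repeated part of that thyroid element, was found in the windows of *Glul* and *Slc1a2* and in 16.3% of all windows.

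*Axin2* (chromosome 11 of GRCm38, 108920349 to 108950783, + strand) encodes a scaffold of the complex that degrades beta-catenin and is itself switched on by beta-catenin, a negative feedback. At ZT6 its level was 7.67, 12.3 and 12.9 CPM in THRB WT and 7.68, 11.2 and 16.1 CPM in THRB KO livers. At ZT18 it was 4.95, 5.93 and 7.10 CPM in THRB WT and 4.80, 5.73 and 5.92 CPM in THRB KO livers. Every liver at ZT6 thus lay above every liver at ZT18. The means over both genotypes were 11.3 ± 3.25 CPM at ZT6 and 5.74 ± 0.830 CPM at ZT18 (SD, n = 6), a ratio of 1.97, and *Axin2* passed the test of sampling time (edgeR's quasi-likelihood test, Benjamini-Hochberg adjusted p = 7.2e-05). The times of the highest and lowest mean were read from the same data, and their ratio is a description.

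*Lgr5* (chromosome 10, 115450311 to 115587780, - strand) encodes a receptor for R-spondins, which raise the sensitivity of cells to Wnt ligands. It measured 3.29, 4.63 and 6.86 CPM in THRB WT and 6.01, 6.52 and 6.86 CPM in THRB KO livers at ZT2. At ZT18 it measured 2.11, 2.11 and 3.37 CPM in THRB WT and 2.06, 2.34 and 4.68 CPM in THRB KO livers. Most livers were higher at ZT2 than at ZT18, with overlap through 2 THRB WT livers at ZT2 and 1 liver of each genotype at ZT18. The means were 5.70 ± 1.44 and 2.78 ± 1.05 CPM (SD, n = 6), a ratio of 2.05 (adjusted p of sampling time = 9.8e-04). Without the mice lettered a this call was lost (adjusted p = 0.0601).

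*Tbx3* (chromosome 5, 119670669 to 119684724, + strand), a transcription factor gene activated by beta-catenin in liver, had no call for sampling time (adjusted p = 0.132). Its lowest, median and highest levels were 22.9, 37.8 and 56.9 CPM at ZT6 and 21.5, 25.1 and 31.0 CPM at ZT10, the times of the highest and lowest mean. The livers at these times overlapped. Without the mice lettered a, *Tbx3* passed the test (adjusted p = 0.0175). The overlapping antisense gene *Tbx3os1* had 29.7% as many counts as *Tbx3* and shared 1.74% of its exon bases, and the libraries do not tell the strands apart.

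*Glul* (chromosome 1, 153899944 to 153909723, + strand), glutamine synthetase, and *Oat* (chromosome 7, 132557478 to 132576398, - strand), ornithine aminotransferase, act in the pericentral handling of ammonia and amino acids. *Glul* ranged from 663 to 976 CPM in THRB WT (median 861) and from 462 to 1205 CPM in THRB KO livers (median 781). *Oat* ranged from 413 to 649 CPM in THRB WT (median 501) and from 318 to 775 CPM in THRB KO livers (median 486). In both genes the THRB KO livers enclosed the range of the THRB WT livers on both sides. For *Glul* the coefficient of variation over all times was 9.10% among THRB WT and 22.6% among THRB KO livers. For *Oat* it was 15.3% and 26.8%. Both ends of the THRB KO range lay at a single time, ZT14 for *Glul* and ZT22 for *Oat*. The SD there was 388 CPM in THRB KO against 31.5 in THRB WT for *Glul*, and 229 against 45.4 for *Oat*. The THRB KO livers with the lowest and the highest *Glul* also held both ends of the THRB KO range of *Rgn* (694 and 1132 CPM). The SD of *Glul* was smaller in THRB KO at ZT6, ZT18 and ZT22 and larger at ZT2, ZT10 and ZT14. That of *Oat* was smaller at ZT6 alone. The difference in spread was not tested. Neither gene passed the test of sampling time (adjusted p = 0.442 for *Glul* and 0.237 for *Oat*). *Oat* passed it without the mice lettered b (adjusted p = 0.0412).

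*Cyp2e1* (chromosome 7, 140763739 to 140774987, + strand) encodes the cytochrome P450 that oxidizes ethanol and acetaminophen. It measured 5519.8, 7178 and 9997 CPM in THRB WT and 5130.3, 6295 and 6627 CPM in THRB KO livers at ZT10. At ZT22 it measured 2831, 3759.9 and 3811 CPM in THRB WT and 2869, 4798 and 4934 CPM in THRB KO livers. All livers at ZT10 lay above all livers at ZT22, and the single highest value of the day was a THRB WT liver at ZT10. The means were 6791 ± 1736 and 3834 ± 903 CPM (SD, n = 6), a ratio of 1.77 (adjusted p of sampling time = 8.8e-06).

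*Cyp1a2* (chromosome 9, 57676937 to 57683703, - strand), the P450 of caffeine metabolism, moved less. At ZT10 it measured 713, 741 and 789.8 CPM in THRB WT and 535, 578 and 688 CPM in THRB KO livers. At ZT2 it measured 481, 536 and 587 CPM in THRB WT and 412, 456 and 558 CPM in THRB KO livers. The THRB WT livers at ZT10 were all higher than the THRB KO livers at that time and than every liver at ZT2. Over both genotypes the ratio of the means at ZT10 and ZT2 was 1.33 (adjusted p of sampling time = 0.0119), a call that was lost without the mice lettered a (adjusted p = 0.0553) and without those lettered b (adjusted p = 0.233).

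*Slc1a2* (chromosome 2, 102658659 to 102790784, + strand), which encodes a transporter that takes up glutamate, a substrate of glutamine synthesis, had the largest ratio of the 10 genes. It measured 158, 176 and 183 CPM in THRB WT and 121, 177 and 189 CPM in THRB KO livers at ZT10. At ZT2 it measured 71.1, 76.9 and 87.8 CPM in THRB WT and 65.5, 72.5 and 90.8 CPM in THRB KO livers. No liver at ZT2 reached the lowest liver at ZT10. The means were 167 ± 25.2 and 77.4 ± 9.93 CPM (SD, n = 6), a ratio of 2.16 (adjusted p of sampling time = 1.5e-09), and sampling time accounted for 81.4% of the sum of squares of its log2 CPM.

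*Lhpp* (chromosome 7, 132610638 to 132706420, + strand) encodes a phosphatase that acts on phosphohistidine. It measured 44.3, 50.5 and 50.8 CPM in THRB WT and 43.4, 46.6 and 52.0 CPM in THRB KO livers at ZT14. At ZT18 it measured 26.2, 32.6 and 35.3 CPM in THRB WT and 24.5, 26.7 and 32.4 CPM in THRB KO livers. The 6 livers at ZT14 were all above the 6 livers at ZT18, so the drop fell within a single sampling interval in the dark phase. The means were 47.9 ± 3.65 and 29.6 ± 4.33 CPM (SD, n = 6), a ratio of 1.62 (adjusted p of sampling time = 8.4e-06).

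*Rgn* (chromosome X, 20549787 to 20562089, + strand) encodes regucalcin, a calcium-binding gluconolactonase. It was the steadiest gene of the group, with 813 to 1083 CPM in THRB WT (median 949) and 694 to 1132 CPM in THRB KO livers (median 903). The ratio of its highest to its lowest mean over the day was 1.07 (adjusted p = 0.847). The calls for sampling time thus comprised 6 of 10 genes, beside 8106 of all 17994 tested genes, or 45%. The median ratio of highest to lowest mean was 1.54 over the 10 genes and 1.43 over all tested genes.

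A wave with a period of 24 h was then fitted within each genotype to describe peak time and amplitude (on the log2 CPM scale, from the middle of the wave to its peak). In THRB WT, 6 of 10 genes passed the test of this wave, beside 33.1% of all tested genes, and they were the 6 genes called for sampling time. *Axin2* peaked at ZT 2.70 ± 0.876 h (SE) and *Lgr5* at ZT 4.73 ± 0.809 h, with amplitudes of 0.52 ± 0.12 and 0.52 ± 0.11. *Lhpp* peaked at ZT 9.13 ± 0.610 h, *Cyp2e1* at ZT 10.6 ± 0.569 h, *Slc1a2* at ZT 11.3 ± 0.458 h and *Cyp1a2* at ZT 11.4 ± 0.531 h, with amplitudes between 0.28 (*Cyp1a2*) and 0.55 (*Slc1a2*). *Axin2* and *Lgr5* thus peaked in the early light phase and the metabolic genes late in the light phase.

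**Figure D2:**
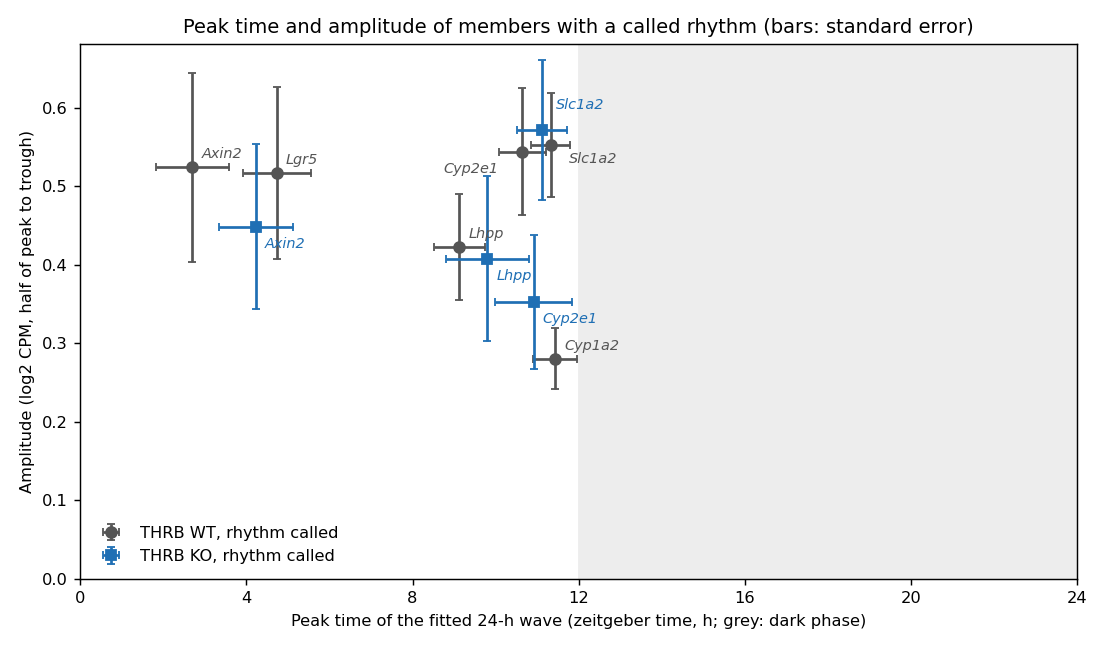
Peak time of the fitted 24-h wave in zeitgeber hours (horizontal axis, dark phase in grey) against its amplitude in log2 CPM (vertical axis, from 0), with bars for the standard error. Only genes with a called rhythm in that genotype are drawn, THRB WT as grey circles and THRB KO as blue squares. *Axin2* and *Lgr5* lie between ZT 2.70 and ZT 4.73, and the metabolic genes between ZT 9.13 and ZT 11.4.

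In THRB KO, 4 of 10 genes passed, *Cyp2e1*, *Axin2*, *Slc1a2* and *Lhpp*, beside 28.9% of all tested genes. Their peaks lay at ZT 10.9 ± 0.926 h, ZT 4.23 ± 0.897 h, ZT 11.1 ± 0.594 h and ZT 9.80 ± 0.988 h (SE). *Lgr5* (adjusted p = 0.0787) and *Cyp1a2* (adjusted p = 0.495) did not pass in THRB KO, and the fitted amplitude of *Cyp1a2* was 0.28 ± 0.039 among THRB WT and 0.097 ± 0.073 among THRB KO livers (SE). The calls in THRB KO depended on few mice. Without the mice lettered b, *Slc1a2* and *Lhpp* remained, with *Cyp2e1* at an adjusted p of 0.0731 and *Axin2* at 0.0645, and without those lettered c only *Slc1a2* remained, with *Cyp2e1* at 0.0698, *Axin2* at 0.125 and *Lhpp* at 0.232.

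The difference between the rhythms of the genotypes was tested itself. It was called for 0 of 10 genes and for 0% of all tested genes by edgeR, with 1 of the 10 genes (*Cyp1a2*) and 553 of all genes under 0.05 before adjustment. The likelihood ratio test of DESeq2 also called 0% of all genes. A test of the genotype effect differing between the 6 times without an assumed wave gave 0 of 10 genes and 0% of all genes by either tool, with 0 of the 10 and 484 of all genes under 0.05 before adjustment in edgeR. The peak of *Slc1a2* differed by -0.21 ± 0.75 h and that of *Cyp2e1* by 0.27 ± 1.09 h (THRB KO minus THRB WT, SE), while that of *Axin2* differed by 1.53 ± 1.25 h. A difference in the rhythm of *Cyp1a2* was not shown at this number of mice.

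The genotype effect on level was estimated over all 36 livers in a model that included sampling time. The test called 0 of 10 genes by edgeR and 0 of 10 by DESeq2's likelihood ratio test, beside 0.950% of all tested genes in edgeR (91 higher and 80 lower in THRB KO) and 1.70% in DESeq2. The log2 fold changes (THRB KO over THRB WT) lay between -0.17 and 0.14, with 6 genes below and 4 above 0. Their median was -0.04, and that of all tested genes was -0.001. Across the 10 genes, the 95% intervals of the ratio of THRB KO to THRB WT reached from 0.797 to 1.30, so smaller changes could have gone undetected.

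Of the enzymes and transporters, *Lhpp* had the largest difference, with a log2 fold change of -0.17 ± 0.078 (SE, ratio 0.890, 95% interval 0.797 to 0.993). Its mean was lower in THRB KO at all 6 times, and it alone of the 10 genes was under 0.05 before adjustment, as were 2169 of all 17994 tested genes, and it did not pass after it (edgeR adjusted p = 0.375). *Cyp1a2* was at -0.12 ± 0.060 (adjusted p = 0.417), *Glul* at -0.10 ± 0.079 (adjusted p = 0.684) and *Rgn* at -0.09 ± 0.045 (adjusted p = 0.450). *Cyp2e1*, *Oat* and *Slc1a2* were closest to 0, at -0.04, -0.03 and 0.03. The Wnt-related genes had small positive values that did not pass the test, *Axin2* at 0.12 ± 0.10 (ratio 1.09, 95% interval 0.938 to 1.26), *Lgr5* at 0.12 ± 0.13 (1.09, 0.910 to 1.30) and *Tbx3* at 0.14 ± 0.11 (1.10, 0.939 to 1.29).

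**Figure D3:**
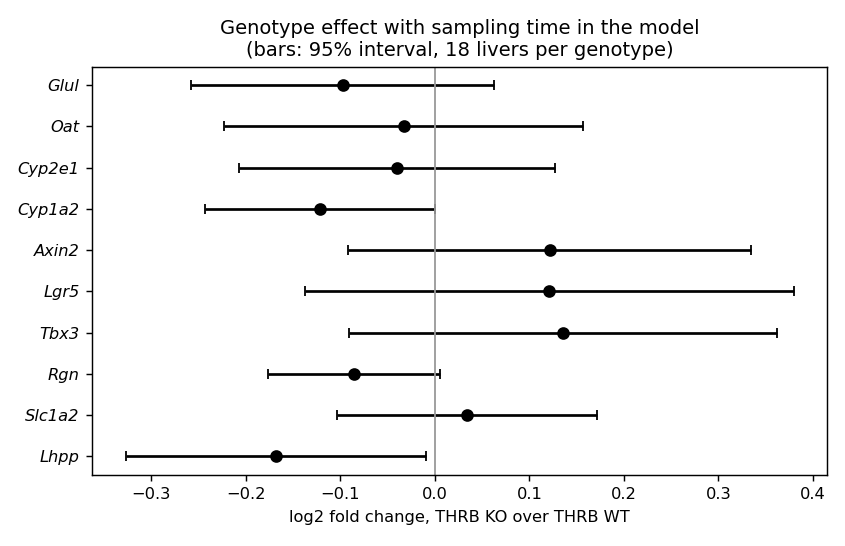
Log2 fold change of THRB KO over THRB WT (horizontal axis) for each of the 10 genes (vertical axis), as points with 95% intervals from edgeR with sampling time in the model, 18 livers per genotype. The interval of *Lhpp* alone lies to the left of 0, and no gene passed the adjusted threshold.

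At single sampling times, 0 of the 60 combinations of gene and time were called, beside 0.0195% of all combinations of tested genes and times. By unadjusted p under 0.05, 2 of the 60 passed, *Cyp1a2* at ZT10 and ZT14, and 5279 of all combinations. The 3 THRB KO and 3 THRB WT livers did not overlap in 8 of the 60 combinations, or 13.3%, 3 with THRB KO higher and 5 with THRB KO lower, beside 9.96% of all combinations of tested genes and times. *Cyp1a2* was lower in all THRB KO livers at ZT10 and at ZT14, where it measured 418, 580.0 and 635 CPM against 648, 717 and 751 CPM (log2 fold change -0.37 ± 0.13, unadjusted p = 0.0096, adjusted p = 0.919). *Glul* had no overlap at ZT18 and at ZT22, where it measured 609, 668 and 718 CPM in THRB KO against 767, 868 and 898 CPM in THRB WT (log2 fold change -0.34 ± 0.20, adjusted p = 0.988). The other combinations without overlap were *Tbx3* at ZT10 and ZT22 (log2 fold changes of 0.34 ± 0.27 and 0.41 ± 0.27), *Cyp2e1* at ZT6 (0.066 ± 0.20) and *Rgn* at ZT2 (-0.20 ± 0.11), none of which passed before or after adjustment (adjusted p of at least 0.864).

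Other genes of the pathway and of the zones were taken from lists, which were chosen with earlier results of these data known. Of 20 other pericentral genes, 1 rose in THRB KO, *Cyp2c29*, a P450 of arachidonic acid metabolism (log2 fold change 0.28, adjusted p = 0.0116), and 19 did not pass. This call was lost without the mice lettered a (adjusted p = 0.349) and without those lettered b (adjusted p = 0.0768). Of 18 periportal genes, 1 rose, *Ctsc*, a lysosomal cathepsin (0.64, adjusted p = 1.8e-07), which was called without any of the 3 letters too. So 1 gene of each list passed, beside 0.950% of all tested genes. Before adjustment, 7 of the 20 other pericentral and 3 of the 18 periportal genes were under 0.05, beside 2169 of all 17994 tested genes. The pericentral ones were *Cyp2c29*, *Cyp7a1* (0.73), *Cyp2c37* (0.39), *Cyp2c54* (0.28), *Ahr* (0.25) and *Cyp2c50* (0.18), higher in THRB KO, and *Lect2* (-0.13), lower. The periportal ones were *Ctsc*, higher, and *Cdh1* (-0.24) and *Cyp2f2* (-0.14), lower. The medians of the log2 fold changes were 0.07 for the other pericentral and 0.03 for the periportal genes.

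Over the day, 7 of 20 other pericentral and 12 of 18 periportal genes passed the test of sampling time, beside 45% of all tested genes. Of the pericentral genes, *Avpr1a*, a vasopressin receptor, went with the early light phase, from 57.0 CPM at ZT2 to 12.0 CPM at ZT10 (adjusted p = 9.1e-12). *Cyp2a5*, a coumarin hydroxylase, was highest at ZT14 with 1495 CPM and lowest at ZT2 with 201 CPM (adjusted p = 4.6e-09), and *Nr1i3*, the nuclear receptor CAR, was highest at ZT10 (75.6 CPM) and lowest at ZT2 (34.3 CPM, adjusted p = 1.1e-05). *Slco1b2*, an organic anion uptake transporter, was highest at ZT6 (995 CPM) and lowest at ZT18 (565 CPM, adjusted p = 9.2e-09). Among periportal genes the highest means fell at different times, as for *Asl* of the urea cycle at ZT14 and *Hal* of histidine breakdown at ZT2. Of the 7 called pericentral genes, 4 had their highest mean at ZT14. Of the 12 called periportal genes, 4 had it at ZT10 and 3 at ZT14. Of all genes called for sampling time, 19.9% had it at ZT10 and 19.8% at ZT14. The called genes of neither zone thus had a single time of day.

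The Wnt pathway was followed from ligands to targets. Of 8 genes of Wnt ligands and their secretion, 3 passed the test of sampling time, which 45% of all tested genes passed. *Wnt5a* was highest at ZT2 (3.19 CPM) and lowest at ZT10 (0.974 CPM, adjusted p = 8.7e-08). *Wnt9b*, which the central vein endothelium releases, was highest at ZT22 (1.35 CPM) and lowest at ZT6 (0.665 CPM, adjusted p = 0.0058), and *Rspo3*, the R-spondin of that endothelium, was highest at ZT2 (4.44 CPM) and lowest at ZT10 (3.02 CPM, adjusted p = 0.0169). Both of the last calls were lost when mice of 1 letter were left out, that of *Wnt9b* without a (adjusted p = 0.130) or b (0.0599) and that of *Rspo3* without b (0.101) or c (0.338). These ligand genes were near or below 4 CPM in whole liver.

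Of 11 receptor genes, 8 passed, beside 45% of all tested genes. *Znrf3*, a ubiquitin ligase that removes Wnt receptors, was highest at ZT6 (13.4 CPM) and lowest at ZT18 (7.30 CPM, adjusted p = 5.1e-09), the same times as *Axin2*. *Rnf43*, its paralog, named here after its values were seen, went from 33.6 CPM at ZT6 to 19.3 CPM at ZT18 (adjusted p = 7.2e-05). The receptors themselves took different times, *Lrp5* from 78.9 CPM at ZT22 to 36.04 CPM at ZT10 (adjusted p = 4.3e-11), *Fzd4* from 43.8 CPM at ZT10 to 20.3 CPM at ZT2 (adjusted p = 1.9e-08) and *Fzd6* from 2.36 CPM at ZT6 to 0.709 CPM at ZT18 (adjusted p = 2.5e-07). So the 2 genes of receptor removal had their highest and lowest means at the times of *Axin2*. At ZT2, however, they lay below and *Axin2* above the mean of the day. The receptor genes *Fzd6* and *Fzd1* (10.4 CPM at ZT6, 7.53 CPM at ZT18) had these highest and lowest times too. *Lrp6* and *Lgr4* were highest at ZT10, as was *Fzd4*, so the receptor genes had no common time.

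Of 9 genes of the beta-catenin destruction complex, 6 passed, beside 45% of all tested genes. *Axin1*, the constitutive relative of *Axin2*, was highest at ZT6 (30.7 CPM) and lowest at ZT18 (20.7 CPM, adjusted p = 2.0e-07), and *Gsk3a*, a kinase of the complex, went from 40.5 to 32.6 CPM between the same times (adjusted p = 6.6e-07). Of 8 genes of TCF factors and coactivators 3 passed, of which *Tcf7l1* was highest at ZT18 (8.66 CPM) and lowest at ZT10 (5.61 CPM, adjusted p = 9.9e-05). In the genotype comparison 1 of the 47 tested Wnt pathway genes passed, beside 0.950% of all tested genes. It was *Apc*, the core scaffold of the complex (log2 fold change 0.15, adjusted p = 0.0142). This call was lost without the mice of any single letter (adjusted p = 0.103 to 0.231) and in a model with genotype alone (adjusted p = 0.508).

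Of 12 genes of Wnt feedback and inhibition 11 were tested and 4 passed the test of sampling time. *Tnfrsf19*, a receptor induced by beta-catenin, had a wide range, from 12.5 CPM at ZT6 to 3.77 CPM at ZT22 (adjusted p = 1.1e-10). *Sp5* (3.19 to 1.70 CPM, adjusted p = 0.0246), a transcription factor induced by Wnt, and *Notum* (37.4 to 27.5 CPM, adjusted p = 0.0388), a secreted enzyme that inactivates Wnt ligands, were highest and lowest at these same times. The calls of *Sp5* (without b 0.101, without c 0.146) and *Notum* (without a 0.0551, b 0.133, c 0.107) were lost when mice of 1 letter were left out. *Ccnd1*, a cell cycle gene, was highest at ZT14 (20.5 CPM) and lowest at ZT10 (9.84 CPM, adjusted p = 0.0154), a call lost without the mice lettered c (0.0611). Over the 5 Wnt lists, 24 of 47 tested genes were called, beside 45% of all tested genes. Of these 24 genes, 10 (41.7%) had their highest mean at ZT6, beside 21.7% of all genes called for sampling time. They comprised 7 of the 12 called receptor and feedback genes, 2 of the 6 called genes of the destruction complex, 1 of the 3 called TCF and coactivator genes and 0 of the 3 called ligand and secretion genes. These shares are a description, since the lists were chosen with earlier results of these data known.

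**Figure D4:**
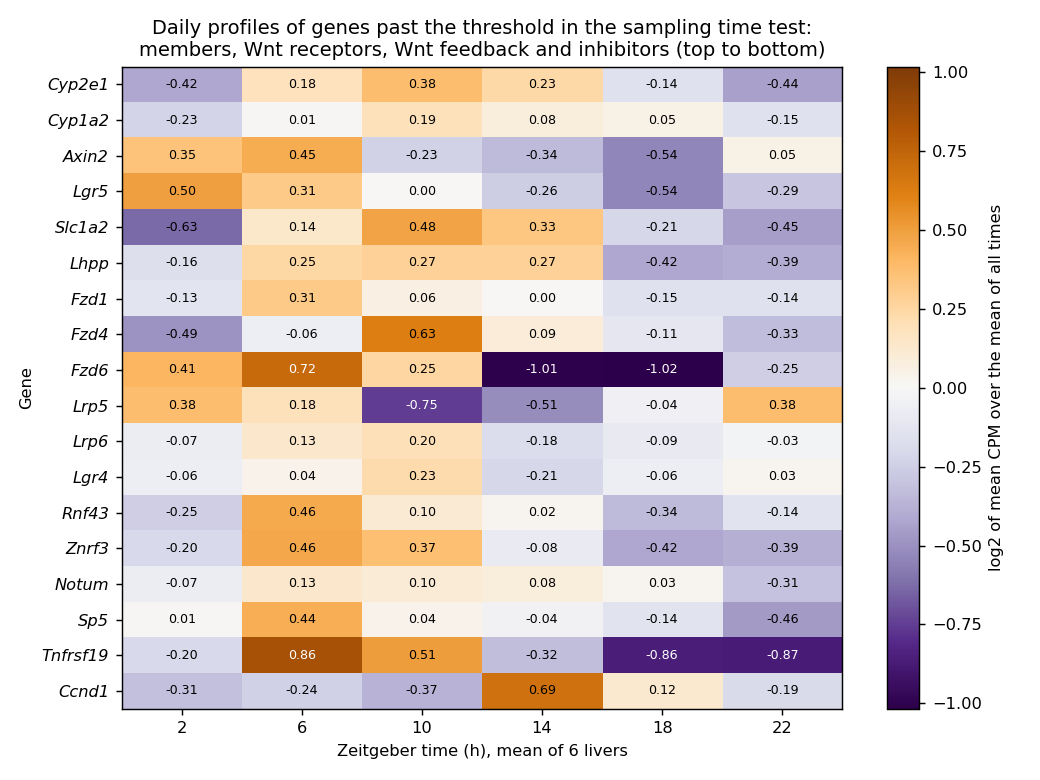
Mean of 6 livers at each zeitgeber time (horizontal axis, hours) for the genes past the threshold in the test of sampling time (vertical axis), as log2 of the ratio to the mean over all times (color scale and printed values). From top to bottom the rows are the 6 called genes of the group, the Wnt receptor genes and the Wnt feedback genes. *Axin2*, *Lgr5*, *Rnf43*, *Znrf3*, *Sp5* and *Tnfrsf19* are above their mean at ZT6 and below it at ZT18. The same holds for *Cyp2e1*, *Slc1a2*, *Lhpp*, *Fzd1*, *Fzd6*, *Lrp6* and *Lgr4*, so the pattern is not particular to Wnt feedback genes.

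Of 42 tested markers of 8 liver cell types, 17 (40.5%) passed the test of sampling time, beside 45% of all tested genes. Among them were 6 of 7 endothelial markers, of which 5 had their highest mean at ZT22, as had 15.2% of all called genes, while *Axin2* and *Lgr5* were highest at ZT6 and ZT2. Their summed level ranged from 121 to 257 CPM in THRB WT and from 154 to 283 CPM in THRB KO livers. Of the 3 called ligand genes, *Wnt9b* was also highest at ZT22, and *Wnt5a* and *Rspo3* were highest at ZT2. Of the hepatocyte markers 2 of 5 passed, of cholangiocyte markers 3 of 5, of stellate and fibroblast markers 3 of 6, of lymphocyte markers 1 of 6, of neutrophil markers 1 of 2 tested, of erythroid markers 1 of 5 and of Kupffer cell markers 0 of 6. The hepatocyte markers summed to 57746 to 83612 CPM in THRB WT and 63513 to 87617 CPM in THRB KO livers. None of these marker lists held a gene called for genotype, beside 0.950% of all tested genes. All tested Kupffer, cholangiocyte, neutrophil and erythroid markers had log2 fold changes (THRB KO over THRB WT) below 0. Their medians were -0.06, -0.19, -0.16 and -0.36. The other marker lists held values on both sides of 0. Before adjustment, 2 of 5 cholangiocyte, 2 of 5 hepatocyte and 1 of 5 erythroid markers were under 0.05, beside 2169 of all 17994 tested genes. The part of cell composition in the daily changes of the 10 genes and of the ligand genes was not tested.

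Across the 36 livers, the 2 genes most like each of the 10 in log2 CPM were searched among 11918 genes with a mean of at least 50 counts, as a description over livers that share sampling times. *Cyp2e1* and *Slc1a2* were each other's nearest gene (Pearson r = 0.892), followed by *Pitpnm2* for *Cyp2e1* (0.861) and *Slc5a6* for *Slc1a2* (0.877). The nearest genes of *Cyp1a2* were *Cyp2e1* (0.750) and *Gamt* (0.731), and those of *Lhpp* were *Rnase4* (0.822) and *Abcg5* (0.790). *Glul* was nearest to *Gulo* (0.752), itself on the pericentral list, and *Cyp2d9* (0.679), *Oat* to *Got1* (0.659) and *Lhpp* (0.615), and *Rgn* to *Ttr* (0.712) and *Cyp2j6* (0.688). *Axin2* was nearest to *Cul1* (0.804) and *Dctn4* (0.749), *Lgr5* to *Efr3a* (0.756) and *Egln3* (0.742), and *Tbx3* to *Snx18* (0.638) and *Zbtb37* (0.564).

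To see whether mice of the same genotype and time differed in the 10 genes together, the mean of each genotype and time was subtracted from log2 CPM and the 45 pairs of genes were correlated over the 36 livers, with two-sided p-values from 100000 permutations within groups, adjusted over the 45 pairs. Of these pairs, 8 passed the threshold, all of them positive, and the same 8 passed with Spearman's rho. As a background, residuals were also correlated over all pairs of the 11918 genes with a mean of at least 50 counts, which include the 10. Pearson r was positive in 40 of the 45 pairs (88.9%) and in 50.2% of all pairs, and it reached the lowest called value of 0.445 in 11 of the 45 pairs (24.4%) and in 5.5% of all pairs. These shares are a description, since pairs share genes and livers. *Oat* and *Lhpp* went together most closely (r = 0.819, p = 2e-05, adjusted p = 9e-04; rho = 0.808, p = 2e-05, adjusted p = 9e-04; r = 0.775 without the 2 livers farthest from the median of *Oat*). These genes are neighbours on chromosome 7 that point away from each other with 34.2 kb between their ends. No exon base was shared between them, and the span annotated for *Fgfr2* covers both without sharing an exon base with either.

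*Cyp2e1* went with *Slc1a2* (r = 0.766, p = 2.8e-04, adjusted p = 0.0042; rho = 0.736, p = 2.6e-04, adjusted p = 0.00585; r = 0.655 without the 2 farthest livers) and with *Cyp1a2* (r = 0.626, p = 1.7e-04, adjusted p = 0.0038; rho = 0.631, p = 4.8e-04, adjusted p = 0.0072; r = 0.624 without the 2 farthest). *Axin2* went with *Tbx3* (r = 0.587, p = 0.00105, adjusted p = 0.0118; rho = 0.557, p = 0.00209, adjusted p = 0.0235; r = 0.559 without the 2 farthest). The remaining 4 pairs were *Oat* with *Slc1a2* (r = 0.688), *Slc1a2* with *Lhpp* (0.638), *Glul* with *Slc1a2* (0.473) and *Glul* with *Lgr5* (0.445), with adjusted p of 0.0239 to 0.0386 for r and 0.0278 to 0.0470 for rho. *Axin2* and *Lgr5*, which shared their time of day, did not pass (r = 0.203, adjusted p = 0.498). When mice of the same time and letter were permuted together, as a replicate block, 5 of the 8 pairs passed, and the pairs of *Slc1a2* with *Lhpp* and with *Glul* and of *Glul* with *Lgr5* did not (adjusted permutation p = 0.0571 to 0.0631). With mice of 1 letter left out, 24 livers and 2 per group remained, and no pair passed without a or without b and 1 pair, *Oat* with *Lhpp*, without c. The r of *Oat* with *Lhpp* was then 0.689 to 0.884 and that of *Cyp2e1* with *Slc1a2* 0.664 to 0.881.

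**Figure D5:**
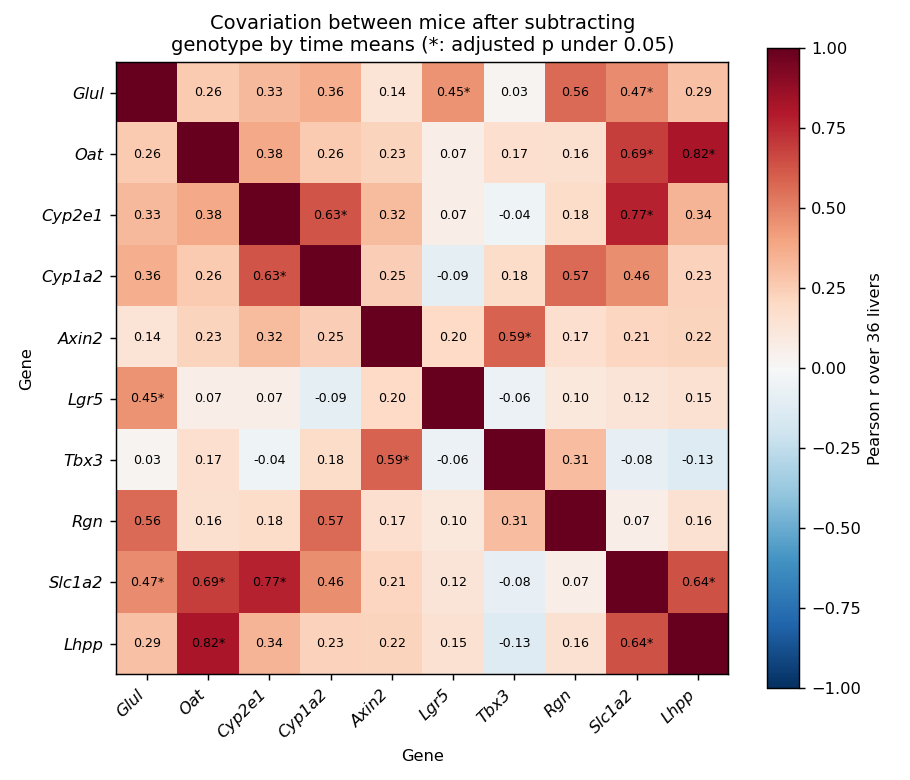
Pearson r between the 10 genes (both axes) over 36 livers after subtraction of the mean of each genotype and time, on a scale from -1 (blue) to 1 (red). Asterisks mark adjusted p under 0.05, and *Oat* with *Lhpp* (0.82) and *Cyp2e1* with *Slc1a2* (0.77) are the strongest pairs.

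The share of the sum of squares of log2 CPM that lay within groups, between mice of the same genotype and time, was 16.9% for *Slc1a2*, 28.8% for *Cyp2e1* and 31.2% for *Lhpp*, and it was 75.1% for *Glul*, 71.5% for *Rgn* and 70.2% for *Oat*. Genotype accounted for at most 11.5% (*Rgn*) and for 0.0970% in *Slc1a2*. The SD between mice within groups was lowest for *Rgn* (0.14 on the log2 scale) and highest for *Lgr5* (0.39).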

How the data were processed

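Livers of 36 mice (18 THRB WT, 18 THRB KO) were grouped by the genotype and time in the labels. The libraries were poly-A selected and do not keep the strand. After quality filtering, the authors aligned the read pairs with HISAT2 (GRCm38) and used FeatureCounts to obtain whole counts for each gene, which were deposited without normalization. Versions and the treatment of reads with several matches are not given in the sources used here, so reads can move between near-identical genes. For the 10 genes such copies had at most 0.0267% of the counts. Depth is given in the report and covers counting precision only. No 2 replicate libraries were alike within counting noise, so none was taken as a repeat deposit.

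Genes reaching 100 counts over all libraries were scaled by TMM and tested with edgeR 4.0.16 (quasi-likelihood, limma 3.58.1, R 4.3.3) with Benjamini-Hochberg adjustment over all 17994 genes at a threshold of 0.05. The models held genotype and sampling time, a wave of 24 h within each genotype, their interactions, or 1 mean per group. CPM used TMM library sizes and log2 CPM a prior count of 2. Waves were fitted in R, covariation was computed in Python 3.11.15 (pandas 2.3.3, scipy 1.17.1, numpy 2.4.6), and scripts were tested on simulated data. Alternatives were DESeq2 1.42.0, its size factors, other filters, robust estimation, replicate blocks, genotype alone, a prior count of 0.5 and leave-out of each letter's mice.

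The 10 genes and all lists were chosen with earlier results of these data known. Named beside the 10 genes were the 2 most correlated genes of each, and from each list those called for genotype and up to 4 with the smallest p for sampling time. Any other list gene, such as *Rnf43*, *Fzd1* or *Cyp7a1*, was named after its values were seen.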

Additional observations from a re-analysis of the deposited data

How the results depend on the processing

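No alternative called any of the 10 genes for genotype, for a difference of rhythms or for an interaction. Of 66 counts of calls among the 10 genes under an alternative, 60 stayed within 1.5 times the main count. All but 1 of the others came from leaving out the mice of 1 letter, where the genes rhythmic in THRB KO numbered 1 to 4 (4 with all mice) and the correlated pairs 0 to 1 (8 with all mice), with fewer mice. The genotype log2 fold change of *Cyp2e1* ranged from -0.067 to 0.018 without 1 letter (-0.04 with all mice), above 0 without c, and never passed the test. With DESeq2's likelihood ratio test *Lgr5* passed the test of rhythm in THRB KO (adjusted p = 0.0389). With the replicate block (mice paired by letter) 0 of the 10 genes were called in the genotype, rhythm difference and interaction tests. The labels do not say what a letter stands for, and same-lettered mice of the 2 genotypes had residual correlations of -0.038 to 0.225, over 0.1 in 9 of 18 pairs. That 15 of 18 correlated best with their own letter is a hint from the data that mice of a letter may share a source of variation, which the models and permutations of the report ignore. As alternatives chosen after seeing the data, both mice of a time and letter were summed or permuted together as a replicate block. With sums, 5 of the 10 genes passed the test of sampling time, *Cyp1a2* no longer (adjusted p = 0.0694), and *Notum* (0.136) and *Rspo3* (0.0554) were also lost. With joint permutation, 5 of the 8 correlated pairs passed. Over all genes, the 171 genotype calls became 387 with the replicate block, 306 with DESeq2, 65 with genotype alone and 42, 85 and 68 without a, b and c. Calls at single times (21) became 43 without a filter and 7, 7 and 18 without a, b and c, and rhythms in THRB KO (5207) became 2726, 3263 and 2394. Rhythms in THRB WT (5952) became 3169 without c, and the block gave 1 rhythm difference. The causes were not tested. Counting error weighs most where counts are low, as for *Lgr5* (63 to 287 reads per library).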
